A study of Saccharomyces cerevisiae with 8 samples.

Results

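The salt response of budding yeast lacking HTZ1 was followed on 4 of the 8 single-colour oligonucleotide arrays of the study, 1 array per culture. The 4 arrays were taken by sample title and form 2 groups of 2, deletion cells left without added salt and deletion cells exposed to 0.4 M NaCl for 20 minutes before harvest. The other 4 arrays hold wild-type cells in the same 2 states and served to estimate the spread and to show where the deletion strain differed. All cultures were Saccharomyces cerevisiae of the strain labelled BY4147, grown in the rich glucose medium YPD to an optical density of 1, and the design text gives each group 2 biological replicates. The deletion groups carry the genotype labelled Htz1 deletion, the wild-type groups the genotype labelled Htz1 wild type. The labels do not say whether the deletion strain was 1 clone or how the gene was replaced, so a secondary change in that strain cannot be told apart from the loss of HTZ1.

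HTZ1 encodes the histone variant H2A.Z, which the SWR1 complex places in the nucleosomes that flank promoters and which the INO80 complex, named in the title of the series, has been linked to removing. Hyperosmotic salt draws water from yeast cells and activates the mitogen-activated kinase Hog1, which drives glycerol production and, with the zinc finger factors Msn2 and Msn4, a broad stress programme. Growth genes, above all those for making ribosomes, are turned down at the same time, so the response has an induced and a repressed arm.

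Values are log2 processed signals relative to the 75th percentile of the array, called levels here, and a change is the difference between group means on that scale, with its standard error (SE). HTZ1 itself read −7.26 and −6.92 without salt and −7.78 and −7.50 with salt in the deletion strain and 1.35 and 1.29 without salt and 1.09 and 0.98 with salt in wild type. It was well above background on none of the 4 deletion arrays and on all 4 wild-type arrays, as the labels say. The genes that mark mating type a (STE2, MFA1, MFA2, BAR1, STE6 and AGA2) were well above background on all 8 arrays. Of the genes of the opposite mating type, STE3 and both alpha-factor genes stayed at background on all 8, while the agglutinin gene SAG1 was on 7 of 8. LYS2, TRP1 and ADE2 were measured on all 8 arrays, and the auxotrophy genes MET17, HIS3, LEU2 and URA3 stayed at background throughout.

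Replicates of the deletion strain correlated across the 5394 tested genes at r = 0.987 without salt and 0.993 with salt, and the median gap between replicates was 0.23 and 0.14. All 8 arrays lay on 1 slide, the deletion arrays in row 2, with both unstressed cultures in columns 1 and 2 and both salt cultures in columns 3 and 4. Position on the slide and salt treatment therefore cannot be told apart. The second unstressed deletion array had 44 spots marked as outliers, against 4 or 5 on the other deletion arrays. It also read higher than the first by a median of 0.13 over the 210 genes that rose at least 4-fold, against −0.03 over all genes. Of the deletion salt arrays, the second read higher by a median of 0.14 over the 263 genes that fell at least 4-fold. Over all genes that gap was −0.02. The part of these gaps in the results was not tested beyond leaving out each array.

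Salt changed 3149 of the 5394 tested genes, or 58.4%, by limma with Benjamini-Hochberg adjusted p under 0.05. Of these, 1582 rose (29.3%) and 1567 fell (29.1%), and the median change over all tested genes was 0.01. At least 2-fold changes were reached by 656 rising (12.2%) and 698 falling genes (12.9%). Both salt arrays lay on the same side of both unstressed arrays for 4223 genes (78.3%), called or not. In the fit 210 genes rose and 263 fell at least 4-fold, and 43 rose and 20 fell at least 16-fold, counts that include genes at background in 1 state, whose fitted size is not exact. Under the normexp background correction, an alternative processing, the calls split into 776 higher and 1405 lower. Of the called genes, 132 risers were not well above background on either unstressed array and 40 fallers on neither salt array. For these the text gives a lower bound ("at least N-fold"), the bright group set against the dim arrays. A dim reading below the lowest well-above-background level of its array was raised to that level. A dim reading above that level was used as it stood. A further 5 called genes, HTZ1 among them, were well above background on none of the 4 deletion arrays and are not described as changed by salt.

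**Figure D1:**
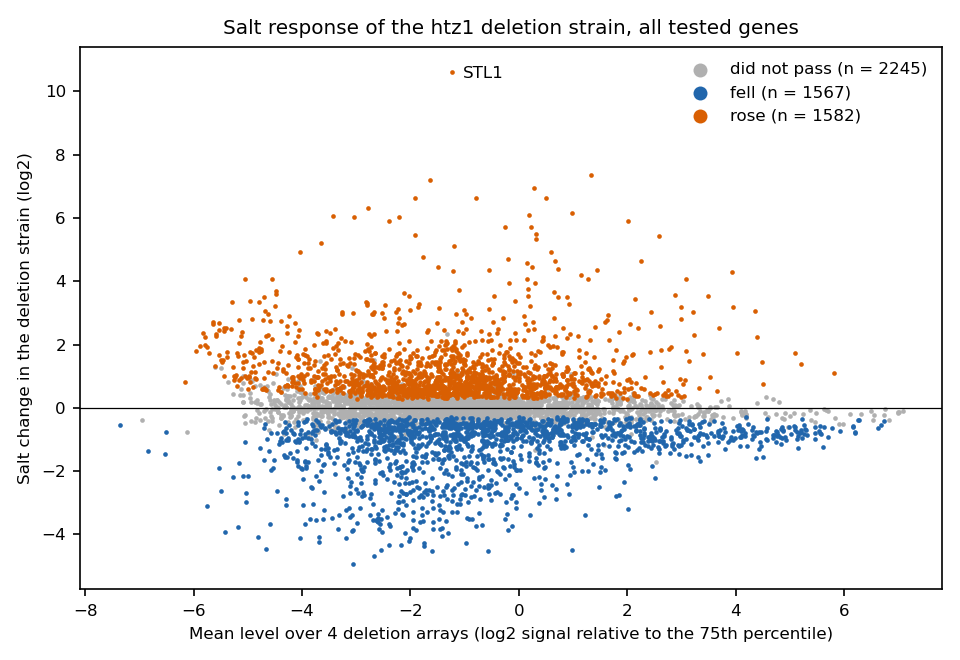
Change under salt in the deletion strain (log2, vertical axis) against the mean level of the gene over the 4 deletion arrays (log2 signal relative to the 75th percentile, horizontal axis), 1 point per tested gene. Orange points rose, blue points fell and grey points did not pass. STL1 stands furthest above 0 at the top, and the lowest points lie near −5.

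Glycerol is the solute that yeast accumulates against salt, and the genes that make and import it were among the highest risers. The glycerol/proton symporter gene STL1 read −6.57 and −6.51 without salt and 4.27 and 3.89 with salt. Both salt arrays lay far above both unstressed arrays, on which the gene was not well above background, so it rose at least 446-fold. In glycerol synthesis the dehydrogenase gene GPD1 read 1.77 and 1.80 without salt and 6.15 and 6.01 with salt. The groups did not overlap, and GPD1 rose 19.6-fold (4.30, SE 0.14, limma adjusted p = 1.04e-06). Its paralog GPD2, linked to redox balance, went the other way and fell (−0.65, SE 0.13). Of the glycerol phosphatase pair, GPP2 read −0.11 and −0.16 without salt and 5.43 and 5.14 with salt and rose 43.0-fold, and GPP1 rose 2.13-fold (1.09, SE 0.20). Of 11 transport and breakdown genes tested, 8 rose and 0 fell, among them the mitochondrial dehydrogenase gene GUT2 (8.55-fold, SE 0.20 on the log2 scale), the dihydroxyacetone kinase gene DAK1 (2.40, SE 0.11) and the glycerol dehydrogenase gene GCY1 (2.15, SE 0.14). RGC1, a regulator of the glycerol channel Fps1, rose (1.18, SE 0.25), and FPS1 (0.31, SE 0.13) and GUP1 (0.58, SE 0.22) did not pass. GUP2, a GUP1 homologue, rose at least 1.04-fold from a level not well above background, and its fitted change turned negative under the normexp background correction (−0.70).

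Sensor and kinase genes of the Hog1 pathway itself were called about as often as all genes. Of 18 tested sensor and kinase genes, 7 rose and 4 fell, 61.1% against 58.4% of all genes, with a median of 0.21 (0.08 under normexp). HOG1 read 1.30 and 1.25 without salt and 1.55 and 1.40 with salt, a change (0.20, SE 0.11) that did not pass. The response regulator gene SSK1, which relays the signal of the Sln1 sensor, rose (1.27, SE 0.19). SHO1, the membrane protein gene of the other input branch, fell (−1.13, SE 0.18), as did CDC42 (−0.51, SE 0.12) and the kinase gene SSK22 (−0.59, SE 0.10). RCK2, whose kinase is a substrate of Hog1, rose (0.69, SE 0.11). Its paralog RCK1 rose at least 1.82-fold from a level not well above background, with a fitted change of −0.18 under normexp. Of 7 phosphatase genes that counter Hog1, 6 rose and 1 fell, each by less than 2-fold. Among the risers were PTP2 (0.96, SE 0.18), PTP3 (0.82, SE 0.13) and PTC4 (0.61, SE 0.14), whereas PTC2 fell (−0.86, SE 0.14). Under the normexp background correction, which moved the median of all genes to −0.18, 2 kinase and 3 phosphatase genes rose. The kinase count was 4 without the first salt array of the deletion strain, and the phosphatase count 3 without either of them.

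Among 31 genes for stress transcription factors, 19 rose and 4 fell (median 0.51), and normexp left 10 risers (median 0.29). MSN2 read −1.64 and −1.35 without salt and 0.11 and −0.13 with salt and rose (1.48, SE 0.15). MSN4, its paralog, rose (0.84, SE 0.23), but was at 0 under normexp (−0.001) and did not pass without the first unstressed or the second salt array. The zinc finger gene USV1, itself induced by stress, rose 27.4-fold (4.78, SE 0.20), and CIN5, whose product acts in salt tolerance, rose 8.88-fold (3.15, SE 0.33). XBP1, a repressor of cyclin genes, read −5.20 and −3.76 without salt and −1.18 and −1.12 with salt. Its salt values lay above both unstressed values, but the unstressed arrays, neither well above background, differed from each other by more than the salt arrays did, and the rise was at least 8.87-fold. HAP4, the activator of respiratory genes, fell (−1.56, SE 0.14), as did SOK2, a regulator of filamentous growth acting with protein kinase A (−1.22, SE 0.17).

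Sodium export and potassium balance accounted for a smaller group of changes. Of 27 transport and homeostasis genes, 11 rose and 3 fell, 51.9% called against 58.4% of all genes. Their median was 0.24, or 0.14 under normexp and 0.38 without the second unstressed array of the deletion strain. The sodium pump gene ENA1 read 0.02 and 0.48 without salt and 2.90 and 3.14 with salt, and ENA2 read 1.33 and 1.84 without salt and 4.35 and 4.45 with salt. Both separated the groups and rose 6.82-fold (2.77, SE 0.18) and 7.02-fold (2.81, SE 0.18). The ENA genes are near-identical tandem copies, so their probes may share transcripts. VHS3, a regulatory subunit of the phosphatase Ppz1, rose (1.80, SE 0.18), as did the vacuolar calcium pump gene PMC1 (1.73, SE 0.23). PMA1, the main plasma membrane proton pump, fell (−1.15, SE 0.31). The potassium importer genes diverged, TRK1 falling (−0.70, SE 0.16) and TRK2 rising (0.49, SE 0.16).

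Reserve carbohydrate genes rose almost without exception. All 7 tested trehalose genes rose (median 3.19), the synthase and phosphatase genes TPS2 (4.65, SE 0.12), TSL1 (4.38, SE 0.19) and TPS1 (3.19, SE 0.12) together with the trehalase genes ATH1 (3.27, SE 0.14), NTH1 (2.34, SE 0.16) and NTH2 (1.88, SE 0.12), so that synthesis and breakdown genes moved the same way. Of 14 glycogen genes 13 rose (median 3.28), 8 of them among the genes well above background on all 8 arrays. PGM2, the major phosphoglucomutase, read −1.97 and −1.76 without salt and 2.89 and 3.22 with salt and rose 30.4-fold, whereas its paralog PGM1 (−0.18, SE 0.12) did not pass. Glycogen synthase GSY1 rose 23.9-fold, GSY2 11.4-fold, branching enzyme GLC3 13.2-fold and phosphorylase GPH1 11.6-fold. GIP2, a targeting subunit of protein phosphatase 1, rose at least 12.8-fold. The medians were 2.23 and 2.10 in the authors' deposited values, and that of glycogen was 2.15 under normexp.

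Sugar uptake and phosphorylation genes split by isoform. HXT5, a hexose transporter used when growth is slow, read −3.36 and −1.52 without salt and 2.96 and 3.17 with salt. Both salt arrays were higher than both unstressed arrays, which were themselves far apart, and the gene rose 45.4-fold (5.50, SE 0.50). The low-affinity transporter gene HXT1 rose 8.30-fold (3.05, SE 0.21). HXT6 (2.15, SE 0.51) and HXT7 (2.27, SE 0.54) rose, but they are near-identical copies. Among the hexose kinases HXK1 read 0.99 and 1.21 without salt and 4.53 and 4.77 with salt and rose 11.7-fold, glucokinase GLK1 rose 8.23-fold, and HXK2, the main kinase in glucose medium, did not pass (−0.21, SE 0.10). Glycolysis itself stood out by how little it moved. Only PYK2 (1.58, SE 0.15), GPM2 (1.70, SE 0.11) and PFK26 (1.91, SE 0.17) rose and TPI1 fell (−0.42, SE 0.14, with a change of 0.03 in the authors' deposited values) of 18 genes. Their median was −0.14, against 0.13 in the authors' deposited values, 0.11 under quantile scaling and −0.0025 without the first unstressed array of the deletion strain. PYK2 and GPM2 are minor isoforms, and PFK26 makes the activator fructose 2,6-bisphosphate. The abundant isoform genes CDC19 (−0.23, SE 0.14), GPM1 (−0.16, SE 0.16) and TDH3 (−0.31, SE 0.13) did not pass.

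The pentose phosphate pathway, which supplies NADPH and ribose, was divided between isoforms. Transketolase TKL2 read −5.19 and −5.29 without salt and 1.94 and 2.00 with salt and rose at least 103-fold, while TKL1 fell (−0.63, SE 0.11). The reading frame YBR116C beside TKL2 rose 122-fold, and its probe may report TKL2 transcripts. The transaldolase isoform gene NQM1 read −2.90 and −2.37 without salt and 3.12 and 3.03 with salt and rose 52.2-fold, against a fall of TAL1 (−0.41, SE 0.14). SOL4 (6-phosphogluconolactonase) read −2.76 and −2.95 without salt and 3.23 and 3.24 with salt and rose 68.1-fold, against a fall of SOL3 (−0.58, SE 0.14). The dehydrogenase gene GND2 rose 6.09-fold and GND1 fell (−0.63, SE 0.12). The groups did not overlap for TKL2, NQM1 or SOL4. The falls were small, and those of TKL1, TAL1 and GND1 did not pass under quantile scaling. Under normexp the falls of TAL1 and SOL3 and the rise of GND2 did not pass. The ribose-5-phosphate isomerase gene RKI1, which has no paralog in the list, fell (−2.53, SE 0.14), and the first enzyme of the pathway, ZWF1, rose (0.73, SE 0.12).

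Opposite movement within a pair of paralogs was also seen outside sugar metabolism. Of 68 pairs, chosen with earlier results known, 65 had both members tested, and in 16 of these 1 rose and the other fell, in 25 both moved the same way and in 18 only 1 passed. Over all genes 29.3% rose and 29.1% fell. The opposite pairs numbered 8 under normexp and 10 without the first salt array of the deletion strain. The cytochrome c genes gave CYC7 at −4.02 and −3.43 without salt and 0.79 and 0.68 with salt and CYC1 at −2.26 and −3.13 without salt and −4.41 and −4.55 with salt. CYC7 rose 22.0-fold and CYC1 fell (−1.78, SE 0.26). The mitochondrial aldehyde dehydrogenase gene ALD4 rose (4.06, SE 0.11) and ALD5 fell (−2.18, SE 0.13), RAS2 rose (0.97, SE 0.14) and RAS1 fell (−2.04, SE 0.12), and the acyl-CoA synthetase gene FAA1 rose (1.72, SE 0.18) while FAA4 fell (−1.66, SE 0.15). NDE2, an external NADH dehydrogenase, rose at least 1.43-fold and NDE1 fell (−0.69, SE 0.18). The repressors of ribosome-making genes also parted, DOT6 rising (0.78, SE 0.22) and TOD6 falling (−3.84, SE 0.33).

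**Figure D2:**
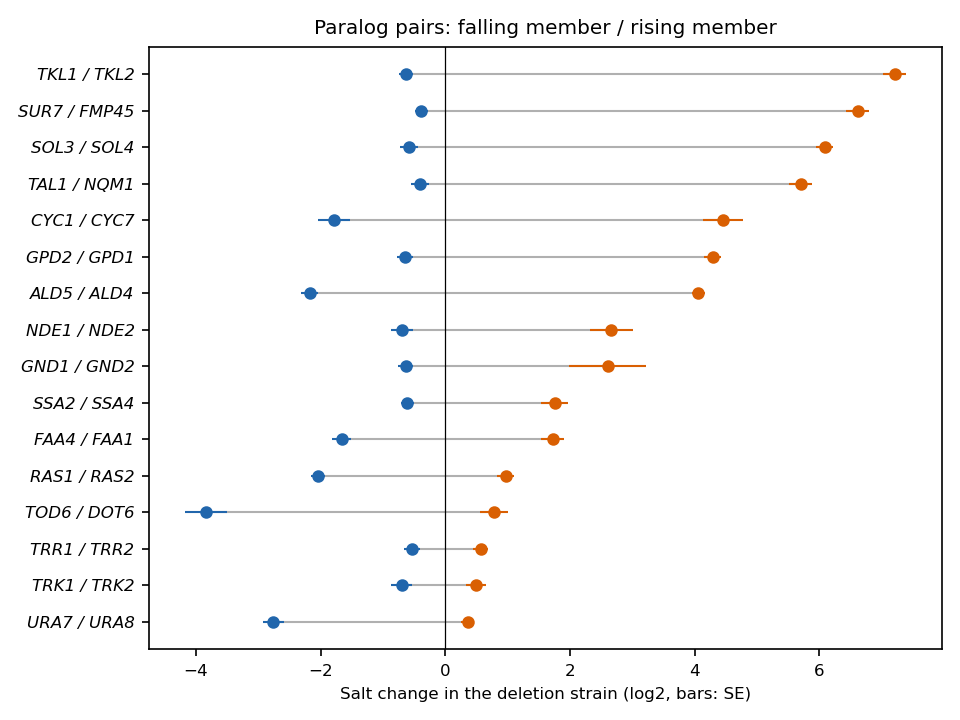
Salt change in the deletion strain (log2 with standard error, horizontal axis) of the 16 paralog pairs whose members moved in opposite directions, 1 line per pair. Orange points rose and blue points fell. TKL2, FMP45 and NDE2 were not well above background without salt, so their points are not exact.

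Aldehyde, peroxide and hydrophilin genes formed the next induced group. Of 19 aldehyde dehydrogenase and reductase genes 17 rose (median 1.32). ALD3, a cytosolic aldehyde dehydrogenase, read −2.67 and −2.04 without salt and rose 163-fold (7.35, SE 0.20, limma adjusted p = 5.95e-07), the largest fitted rise among genes well above background on all 4 deletion arrays. Its near copy ALD2 rose much less (0.73, SE 0.11). The reductase genes GRE2 and GRE3 rose 10.9-fold and 5.83-fold, and glyoxalase GLO1 rose 3.16-fold. Cytosolic catalase CTT1 read −2.91 and −2.75 without salt and 3.97 and 3.66 with salt and rose (6.64, SE 0.19), more than peroxisomal CTA1 (1.00, SE 0.17). Most other peroxide genes moved less: mitochondrial peroxiredoxin PRX1 rose 4.38-fold, mitochondrial superoxide dismutase SOD2 rose (0.90, SE 0.15) and glutathione peroxidase GPX2 fell (−1.06, SE 0.14). The abundant peroxiredoxin gene AHP1 did not pass (−0.10, SE 0.18), nor did SOD1 (−0.10, SE 0.17), for which 1 unstressed array had both spots excluded and the authors' deposited values gave a change of the other sign. In the thioredoxin and glutathione list 11 of 24 rose and 4 fell (7 rose under normexp, and 7 without the first salt array of the deletion strain), led by the glutaredoxin gene GRX2 (1.43, SE 0.22) and, downward, GRX8 (−1.27, SE 0.22).

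Small stress proteins rose, and the large chaperones were mixed. Of 14 small heat shock protein and hydrophilin genes 12 rose (median 2.63, or 2.26 with bounded genes at their bound). HSP12, a membrane-associated stress protein, read −1.09 and −0.79 without salt and 5.11 and 4.83 with salt and rose 60.1-fold. RTC3 read −1.99 and −2.23 without salt and rose 72.1-fold, and the stress gene DDR2 rose 20.5-fold. The hydrophilin gene GRE1 was well above background on 1 of 2 unstressed arrays, reading −4.62 and −4.69 without salt and 0.73 and 0.92 with salt. Both salt values were above both unstressed values. HSP26 (1.85, SE 0.16) and HSP42 (1.92, SE 0.13) rose, while HSP30, a plasma membrane protein gene, fell (−1.62, SE 0.31). In the Hsp70 family 9 of 19 genes fell and 4 rose (median −0.38, or −0.58 and −0.24 without the first and the second unstressed array of the deletion strain). The stress-inducible members SSA4 (1.76, SE 0.22) and SSE2 (1.54, SE 0.23) rose, and the ribosome-associated members SSB1 (−1.09, SE 0.13), SSB2 (−0.88, SE 0.13) and ZUO1 (−1.02, SE 0.11) fell. HSP104 rose (1.24, SE 0.20), and CNS1, an Hsp90 cochaperone linked to translation elongation, fell most in its list (−2.72, SE 0.12).

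Most membrane compartment genes rose. Of 16 eisosome genes, which shape furrows of the plasma membrane, 13 rose and 1 fell (median 1.68). The core genes PIL1 and LSP1 rose by 2.25 (SE 0.11) and 2.29 (SE 0.15). FMP45 and YNL194C, which belong to the SUR7 family, rose at least 69.2-fold and at least 20.1-fold. SUR7 itself, the paralog of FMP45, fell (−0.39), a call that was lost under normexp. Among other genes not well above background without salt, the reticulon gene RTN2 rose at least 38.8-fold and the polarity gene HBT1 at least 26.1-fold. The bounds were at least 34.0-fold for the kinase-like gene FMP48 and at least 45.9-fold for YNL195C. YNL195C lies next to YNL194C. PUT4, a proline permease, read −4.17 and −3.34 without salt and 1.51 and 1.23 with salt and rose 34.9-fold.

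Autophagy, mitochondrial and alternative carbon genes leaned upward. Of 35 autophagy and vacuolar protease genes 27 rose (median 0.85, or 0.44 under normexp), among them the receptor gene ATG39 at least 4.61-fold and ATG7, whose enzyme drives lipid conjugation (2.33, SE 0.13). ATG41 fell (−1.31, SE 0.32). Of 26 peroxisomal genes 16 rose, among them the thiolase gene POT1 at least 2.82-fold and the isomerase gene ECI1 (1.86, SE 0.12). These counts were 13 and 4 under normexp, and the peroxisomal count was 10 over genes well above background on all 8 arrays. The peroxisomal median was 0.57, or −0.08 under normexp, where that of all genes was −0.18. Tricarboxylic acid cycle genes rose in 13 of 23 cases, with succinate dehydrogenase SDH1 (2.13, SE 0.13) and SDH2 (1.69, SE 0.18) foremost, while malic enzyme MAE1 (−2.51, SE 0.18) fell. Respiratory chain genes rose in 17 of 37 cases, and MPC3, a subunit of the mitochondrial pyruvate carrier, read −2.92 and −3.30 without salt and 3.12 and 2.08 with salt and rose 52.1-fold. In the list of 16 glucose-repressed and gluconeogenic genes 9 rose, against 0 under normexp and 3 over genes well above background on all 8 arrays. Their median was 0.58, or −0.22 under normexp. The lactate carrier gene JEN1 rose at least 2.73-fold. Proteasome genes were called less often than all genes (25% against 58.4%). Of 36 tested, 8 rose, a smaller share than the 29.3% over all genes, and the assembly gene POC4 fell. The proteasome median was 0.18, against 0.01 over all genes. It was 0.04 without the second unstressed array of the deletion strain. The rising count was 5 under normexp, with no filter or when any 1 wild-type array was left out, 3 with the deletion arrays alone and 13 with the replicate block. It was 2 and 1 without the first and the second salt array of the deletion strain.

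**Figure D3:**
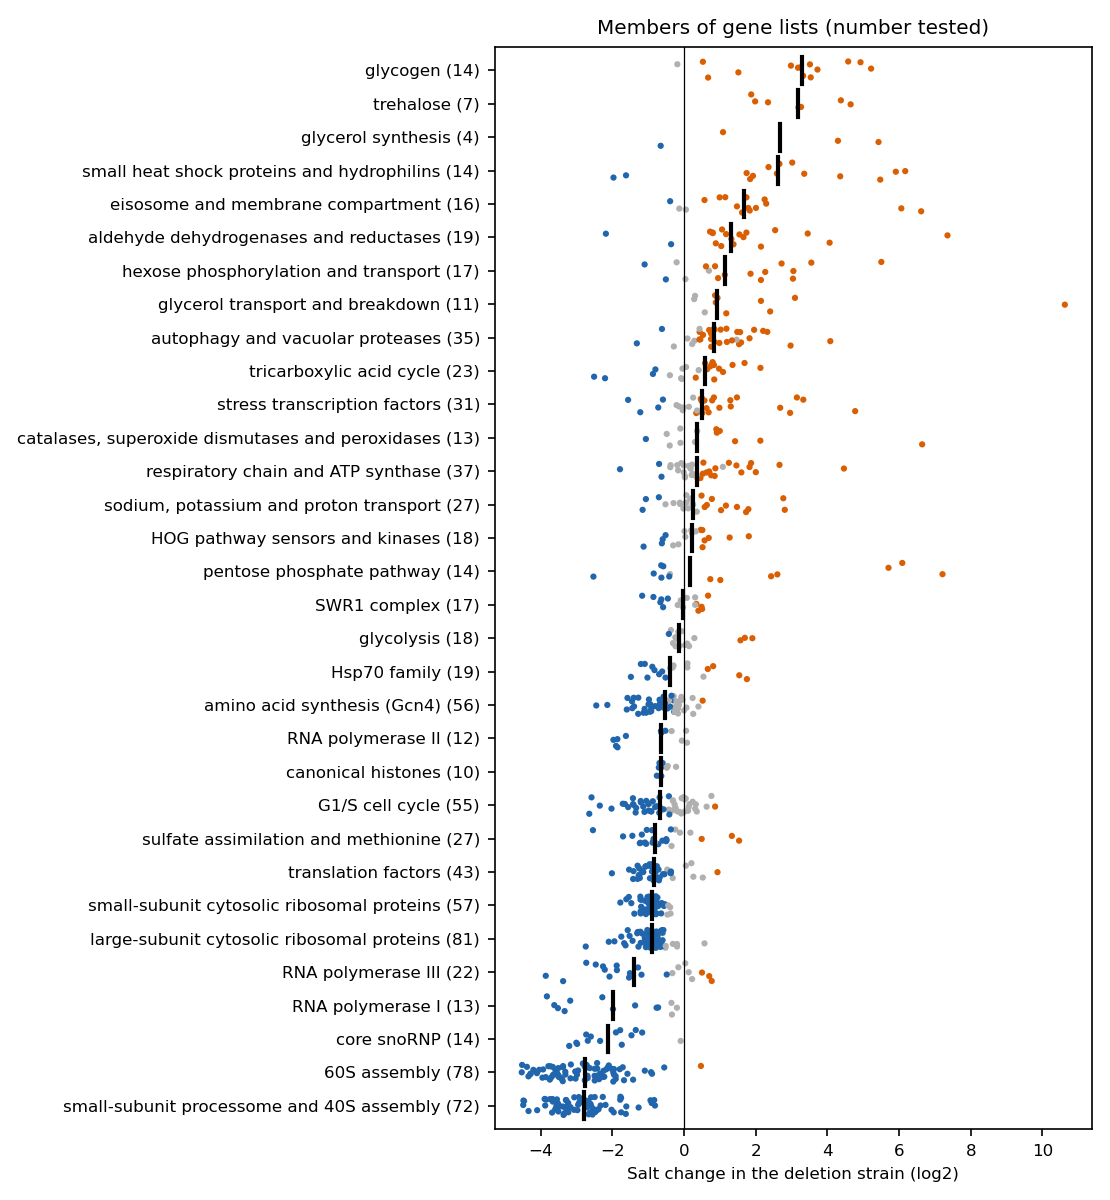
Salt change in the deletion strain (log2, horizontal axis) of every tested member of 32 gene lists, 1 dot per gene and 1 row per list, ordered by the list median (black bar). Coloured dots passed the test, orange for higher and blue for lower, and grey dots did not. Trehalose and glycogen genes lie highest and the genes of ribosome assembly lowest.

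The repressed arm was led by ribosome assembly. Of 72 tested genes for the small-subunit processome and 40S assembly, all 72 fell, with a median of −2.79, and of 78 genes for 60S assembly 77 fell, with a median of −2.76. The exception was REH1, which acts late in the cytoplasm (0.47, SE 0.10). SPB1, an rRNA methyltransferase of the 60S precursor, read 0.54 and 0.76 without salt and −4.25 and −3.50 with salt. Both salt arrays lay below both unstressed arrays, and SPB1 changed by −4.52 on the log2 scale (SE 0.32, limma adjusted p = 2.04e-05), the largest fitted fall among genes measured on all 4 deletion arrays. Nucleolin homologue NSR1 read 3.25 and 3.19 without salt and −1.45 and −1.07 with salt and changed by −4.48, SE 0.22. RRS1, needed for 5S RNP docking with RPF2, read 0.59 and 0.29 without salt and −4.04 and −3.84 with salt and changed by −4.38, SE 0.18, and RPF2 changed by −4.34, SE 0.30. The t-UTP gene UTP4 changed by −4.34, SE 0.31, IPI3 by −4.29, SE 0.23, NOC2 by −4.20, SE 0.25, PUF6 by −4.10, SE 0.44 and MAK16 by −4.04, SE 0.22. None of these groups overlapped, which also held for 78.3% of all tested genes. SSF1 (−3.95, SE 0.19) fell further than its paralog SSF2 (−2.37, SE 0.15). Several processome genes dropped out of measurement with salt: RRP36 fell at least 11.7-fold, the helicase gene DHR2 at least 12.1-fold and PNO1 at least 10.1-fold. In the authors' deposited values the medians of the small-subunit and 60S lists were −2.01 and −1.95.

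**Figure D4:**
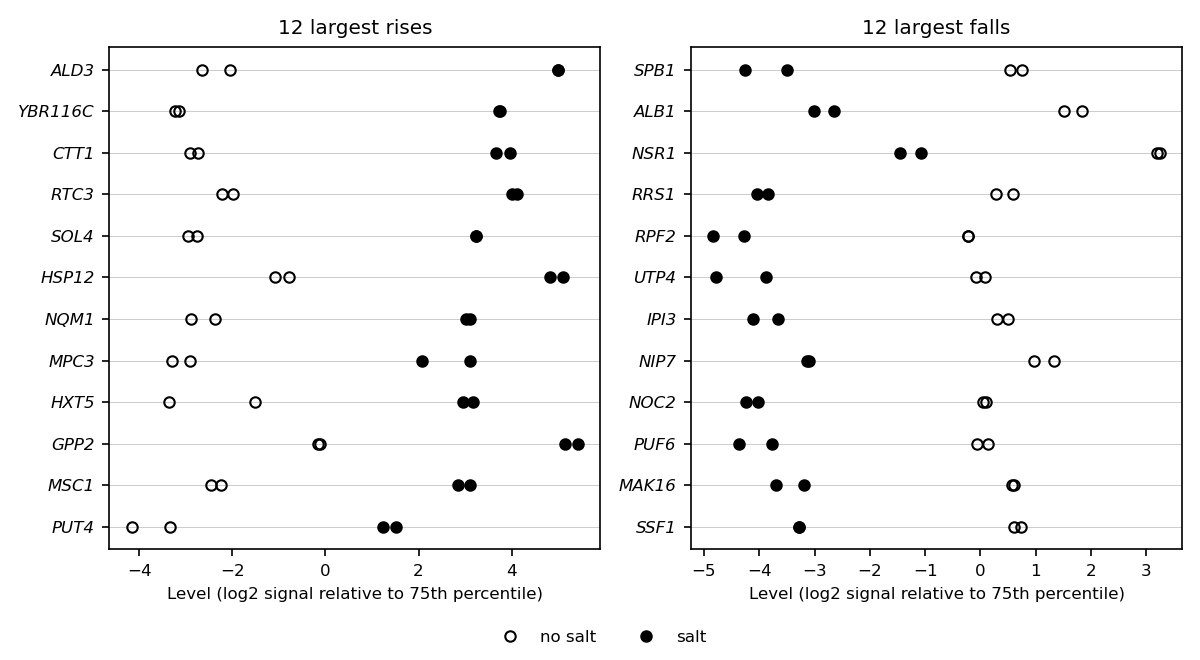
Level on each deletion array (log2 signal relative to the 75th percentile, horizontal axis) of the 12 genes with the largest fitted rise and the 12 with the largest fitted fall among genes well above background on all 4 arrays. Open circles are cultures without salt and filled circles cultures with salt, 2 each. The genes were chosen for large called changes. No gene overlaps between the states, which also held for 78.3% of all tested genes. HXT5 and PUT4 show the widest gap between unstressed cultures.

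The RNA machinery that serves ribosome assembly fell with it. Core snoRNP genes, for proteins that modify rRNA, fell in 13 of 14 cases (median −2.12), among them the fibrillarin gene NOP1 (−2.73, SE 0.13), NOP58 (−2.98, SE 0.16), NOP56 (−2.34, SE 0.13) and the pseudouridine synthase gene CBF5 (−2.68, SE 0.15). RNA polymerase I genes fell in 10 of 13 cases (median −1.98, and −1.44 in the authors' deposited values). RPA43 changed by −3.82, SE 0.18, RPA12 by −3.62, SE 0.15, and the largest subunit RPA190 by −2.28, SE 0.25, whereas the initiation factor genes RRN3 (−0.35, SE 0.14) and RRN5 (−0.20, SE 0.12) did not pass. RNA polymerase III genes fell in 14 of 22 cases, RPC25 furthest (−3.85, SE 0.13). The RNA polymerase III repressor gene MAF1 rose (0.71, SE 0.11), as did the initiation factor gene TFC3 (0.77, SE 0.15). The RNA polymerase II list divided by sharing. The 5 subunits held in common with polymerases I and III fell at least 2-fold, RPC10 (−1.97, SE 0.18), RPB5 (−1.90, SE 0.11), RPB8 (−1.86, SE 0.19), RPO26 (−1.85, SE 0.16) and RPB10 (−1.62, SE 0.14). Subunits of polymerase II alone moved less than 2-fold, with RPB3 (−0.52, SE 0.10) called and RPO21 (0.09, SE 0.31) not. Exosome and TRAMP genes, which trim and degrade RNA, fell in 15 of 21 cases, MTR4 (−2.86, SE 0.16) among the furthest, and AIR1 fell at least 11.2-fold.

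Ribosomal proteins and translation factors fell too, with medians nearer 0. Large-subunit ribosomal protein genes fell in 74 of 81 cases (median −0.90) and small-subunit ones in 53 of 57 (median −0.88), and none rose. RPL7B changed by −2.10, SE 0.16, RPL31B by −1.94, SE 0.16 and RPS27A by −1.77, SE 0.18. Many ribosomal protein genes are near-identical pairs that a probe may not separate. The large-subunit count was 49 under normexp and 41 without the second salt array of the deletion strain, and its median was −0.58 in the authors' deposited values and −0.57 under quantile scaling. Translation factor genes fell in 36 of 43 cases (median −0.84), among them the initiation factor 3 subunit gene TIF35 (−2.01, SE 0.13). Cytosolic aminoacyl-tRNA synthetase genes fell in 19 of 23 cases (median −0.58). Of 67 mitochondrial ribosomal protein genes 8 rose and 9 fell, shares below those over all genes. Their median of 0.06 had no settled sign, being 0.20 and −0.14 without the first and the second unstressed array of the deletion strain. Among regulators of ribosome genes IFH1, the coactivator at ribosomal protein promoters, fell (−1.19, SE 0.18), STB3 (0.93, SE 0.21) and TOR1 (0.96, SE 0.16) rose, and RAP1 (−0.06, SE 0.13) did not pass.

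Biosynthetic genes outside the ribosome also leaned downward, where over all genes 29.3% rose and 29.1% fell. In purine and GTP synthesis 10 of 23 fell (16 with the replicate block) and 2 rose, 52.2% called against 58.4% of all genes. The purine median was −0.58, or −0.28 and −0.90 without the first and the second salt array of the deletion strain. AAH1, the adenine deaminase of the salvage route, read 0.01 and −0.26 without salt and −4.02 and −4.11 with salt and changed by −3.94, SE 0.13, and HPT1, which salvages hypoxanthine and guanine, changed by −2.60, SE 0.34. In pyrimidine synthesis 7 of 11 fell, the CTP synthase gene URA7 furthest (−2.76, SE 0.17), while URA10 rose (1.28, SE 0.13). Amino acid synthesis genes fell in 34 of 56 cases (median −0.52), led by LEU9 (−2.45, SE 0.12) and LYS4 (−2.14, SE 0.12). Sulfate assimilation and methionine genes fell in 19 of 27 cases (median −0.81, and −0.43 in the authors' deposited values), among them MET14 (−1.70, SE 0.21), while MET13 (1.54, SE 0.14) and MET28 (1.34, SE 0.27) rose. The polyamine exporter gene TPO4 rose (2.37, SE 0.19), as did the kinase gene PTK2 (2.20, SE 0.13), whose kinase controls polyamine and proton transport, and the synthesis genes SPE2 (−1.34, SE 0.12) and SPE4 (−1.49, SE 0.14) fell. Phosphate genes fell in 13 of 24 cases, with the transporter gene PHO84 at −3.38, SE 0.38. The phosphate-regulated gene PHM7 went the other way, reading −4.65 and −3.55 without salt and 2.68 and 2.37 with salt, with 1 of 2 unstressed arrays well above background and no overlap. Sterol genes fell in 19 of 33 cases, among them ERG3 (−1.42, SE 0.11), ERG11 (−1.38, SE 0.14) and ERG25 (−1.18, SE 0.12).

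Division genes leaned downward, where over all genes 29.3% rose and 29.1% fell. The G1/S and G2/M lists were called slightly less often than all genes (56.4% and 53.3% against 58.4%), and the canonical histones more often (70%). G1/S genes fell in 30 of 55 cases and 1 rose (median −0.68, or −0.33 in the authors' deposited values), the ribonucleotide reductase gene RNR1 reading 1.86 and 2.09 without salt and −0.86 and −0.35 with salt and changing by −2.58, SE 0.23. Of 30 G2/M genes 13 fell, or 8 without the first salt array of the deletion strain, among them the mitotic cyclin genes CLB1 (−1.29, SE 0.22) and CLB2 (−1.27, SE 0.19), and FKH1 (−1.93, SE 0.19), whose forkhead factor acts on them. FAR1, which arrests the cycle in G1, fell (−2.34, SE 0.24). The mating-type endonuclease gene HO, a G1/S target, read −0.75 and −0.41 without salt and −6.23 and −4.84 with salt and fell at least 22.6-fold, the largest bounded fall. SFG1, a regulator of filamentous growth, fell at least 16.7-fold. Canonical histone genes fell in 7 of 10 cases (median −0.64, or −0.37 in the authors' deposited values). This count was 2 under normexp, 4 without the first unstressed array and 3 without the second salt array of the deletion strain. HTA2, which encodes canonical H2A, fell (−0.70, SE 0.14), though near-identical histone copies may share a probe.

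Genes of the complexes that place or remodel H2A.Z went both ways, most by less than 2-fold. Of 17 SWR1 complex and H2A.Z chaperone genes 5 rose and 6 fell, 64.7% called against 58.4% of all genes. Their median was −0.03, against 0.13 in the authors' deposited values and 0.17 under quantile scaling. The catalytic gene SWR1 read 0.41 and 0.47 without salt and 1.23 and 1.00 with salt and rose (0.67, SE 0.12), and the chaperone gene CHZ1 fell (−0.58, SE 0.12). Of 15 INO80 complex genes 2 rose and 4 fell, 40% called (median −0.21, or −0.10 without the first unstressed array of the deletion strain). INO80 itself did not pass (−0.28, SE 0.18), and IES6 fell (−0.83, SE 0.13). RVB1, a helicase shared with SWR1 and with snoRNP assembly, fell (−1.17, SE 0.11) and its partner RVB2 did not pass (−0.09, SE 0.12). Among 63 other chromatin regulators 5 rose and 14 fell, 30.2% called. This list and the INO80 list were thus called less often than all genes (58.4%). SIR2, the silencing deacetylase, was lower (−1.15, SE 0.12), and the acetyltransferase gene SAS2 was lower at least 2.27-fold. Of the 217 tested genes among the 10 outermost of each chromosome arm, where H2A.Z loss is known to affect silencing, 63 rose and 39 fell. The risers were 16 under normexp and 40 over genes well above background on all 8 arrays. The share of risers was close to that over all genes (29.3%), and a smaller share fell than the 29.1% over all genes. In all, 47% were called, against 58.4% of all genes, and 1 outermost gene, HXK1, differed between strains.

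Cell wall and pheromone response genes were mixed, while Ras and protein kinase A genes and DNA damage genes leaned upward. Of 47 cell wall genes 11 rose and 15 fell, 55.3% called against 58.4% of all genes, and 9 fell without the first salt array of the deletion strain. The stress-induced wall protein gene SPI1 rose 16.7-fold (4.06, SE 0.18) and the mannoprotein gene CWP1 11.6-fold (3.54, SE 0.18), against falls of ECM33 (−1.48, SE 0.15) and CIS3 (−1.20, SE 0.12). In the Ras and protein kinase A list 14 of 21 rose (9 under normexp) and 1 fell (median 0.63). The risers included the catalytic subunit gene TPK2 (2.10, SE 0.13) and YAK1 (2.08, SE 0.17), whose kinase opposes protein kinase A. Pheromone response genes rose in 8 of 27 cases, close to the 29.3% over all genes, and fell in 5. They rose in 3 under normexp and in 4 without the first salt array. PRM8, a pheromone-regulated membrane protein gene, rose (1.86, SE 0.15), and the a-factor gene MFA2 fell (−2.39, SE 0.12). DNA damage genes rose in 12 of 22 cases, including the photolyase gene PHR1 (1.17, SE 0.21), and fell in 1. Their median was 0.68, or 0.39 under normexp. MSC1, an endoplasmic reticulum protein gene, read −2.47 and −2.24 without salt and 2.86 and 3.11 with salt and rose 40.5-fold.

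Some of these calls did not hold in every setting. In the authors' deposited values GUP2, RCK1 and TPI1 did not pass, and with the deletion arrays alone SUR7, TAL1, TPI1 and TRK2 did not. TPI1 did not pass with an intensity trend in the fit, nor TAL1 with no filter. With the normexp correction the calls of ATF1, ATG39, CTA1, GND2, GUP2, JEN1, MCO32, MET13, MSN4, NDE2, PHR1, POT1, PTC4, RCK1, SOL3, SSK1, SUR7, TAL1, TPI1, TRK2, URA10, VHS3, YAK1, YHR022C and YKL162C were lost (limma adjusted p from 0.0544 to 1), and with quantile scaling those of GND1, PMA1, TAL1, TKL1 and TPI1 (from 0.0578 to 0.546). Without the first unstressed array of the deletion strain DOT6, HXT6, HXT7, MFA1, MSN4, RCK1, TAL1, TPI1 and TRK2 did not pass (from 0.0535 to 0.166), and without the second NDE1, PMA1 and SUR7 did not (from 0.0544 to 0.0698). Without its first salt array NDE1, PMA1, RCK1, SUR7, TAL1, TPI1, TRK1 and TRK2 did not pass (from 0.0545 to 0.118), and without the second ATF1, DOT6, MFA1, MSN4, SOL3, SUR7, TAL1, TPI1 and TRK2 did not (from 0.0598 to 0.166). TAL1 also did not pass without any 1 wild-type array, and TRK2 and TPI1 without either unstressed wild-type array.

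Against wild type, most of the salt response was shared in direction. Wild type changed 3070 genes (56.9%), of which 2641 were also called in the deletion strain and 7 of these moved in opposite directions. The 2 responses share no arrays. The difference between them, the deletion change minus the wild-type change from the same limma fit, passed for 54 genes (1.00% of those tested), 6 higher (0.111%) and 48 lower (0.890%), and 653 had an unadjusted p under 0.05. The count was 1 under normexp, 14 with no filter on dim probes and 19 in the authors' deposited values. It was 4 without the first salt array of the deletion strain, 102 without the first salt array of wild type, and 13 to 21 without any other single array. Of the 28 genes named here for a difference, HXK1 alone passed under all 17 alternatives, and TMA10 passed under 16. The deletion arrays and the wild-type arrays filled different rows of the slide, so strain and row cannot be told apart.

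The 54 genes fell into 2 main classes. In 19 the salt rise was smaller in the deletion strain, and in 26 the salt fall was larger. The 19 weaker risers were all higher in the deletion strain before salt (median 1.86) and nearer to wild type after it (median 0.44), so that the unstressed level made the larger part of the difference in all 19. Of these, 12 were well above background on all 8 arrays. HXK1 read −2.57 and −2.61 without salt and 3.59 and 3.69 with salt in wild type, against the deletion values above. The strains were further apart without salt than with it, giving a difference of −2.68 (SE 0.19, limma adjusted p = 0.00633). The ribosome-associated protein gene TMA10 read 0.98 and 0.86 without salt and 4.07 and 3.81 with salt in the deletion strain and −1.99 and −2.19 without salt and 3.60 and 3.32 with salt in wild type, and NQM1 read −3.73 and −3.82 without salt and 4.04 and 3.76 with salt in wild type. Both were higher in the unstressed deletion cultures, with differences of −2.53 (SE 0.22) and −1.97 (SE 0.26). HSP12 (−1.69), GLK1 (−1.65), GPP2 (−1.49), GSY1 (−1.11), EMI2 (−0.93) and GPM2 (−0.91) showed the same form of difference. RTC3 and SOL4 did too, with neither unstressed wild-type array well above background, and so did INH1, the inhibitor of mitochondrial ATP synthase, with 1 of 2.

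The 26 stronger fallers were all lower in the deletion strain with salt (median −1.88) and closer to wild type without it (median −0.36). Of these, 20 were well above background on all 8 arrays. RPA12, a subunit of RNA polymerase I, read 0.32 and 0.12 without salt and −3.53 and −3.26 with salt in the deletion strain and 0.56 and 0.30 without salt and −1.15 and −1.13 with salt in wild type. The strains were close without salt, the deletion values with salt lay below all others, and the difference was −2.05 (SE 0.21, limma adjusted p = 0.00947). ALB1, a 60S shuttling factor, read 1.85 and 1.52 without salt and −3.01 and −2.65 with salt and 1.81 and 1.85 without salt and −0.99 and −0.59 with salt, with a difference of −1.90 (SE 0.27). UTP13, of the small-subunit processome, differed by −1.72 (SE 0.29), NIP7, of 60S assembly, by −1.42 (SE 0.23), RPC25, of RNA polymerase III, by −1.40 (SE 0.18), and the snoRNP gene NHP2 by −1.23 (SE 0.20). The fall of whole lists was deeper in the deletion strain at the median, by −0.67 for small-subunit and −0.59 for 60S assembly genes, against −0.07 for all genes, and 6 and 3 members passed. In the authors' deposited values these medians were −0.18 and −0.16. For 60S assembly it was −0.39 under quantile scaling. The medians of the large-subunit and small-subunit ribosomal protein lists were −0.01 and −0.05, and lay between −0.27 and 0.24 and between −0.28 and 0.21 with 1 array left out.

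A few genes differed in other ways. PCL1, a G1 cyclin gene, did not pass in the deletion strain (−0.06, SE 0.14) and rose in wild type by 1.57, a difference of −1.63 (SE 0.20). The alcohol acetyltransferase gene ATF1 rose in the deletion strain (0.45, SE 0.11) and fell in wild type (−0.78), a difference of 1.23 (SE 0.16). The frame YGR073C fell in the deletion strain (−0.95, SE 0.13) and rose in wild type (0.82). Genes with a larger fitted rise in the deletion strain were YNL195C, YHR022C, YKL162C and MCO32, all 4 not well above background on the unstressed deletion arrays and 3 of them named after their values were seen, and GUP2 beside ATF1 made up the 6 higher genes. Under normexp the differences of MCO32 (−0.69), YHR022C (−0.032) and GUP2 (−0.37) had the other sign, and the salt rises of YHR022C, YKL162C and MCO32 did not pass. The glycerol and ion transport genes STL1 (0.23), GPD1 (−0.41) and ENA1 (0.32) did not pass for a difference.

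**Figure D5:**
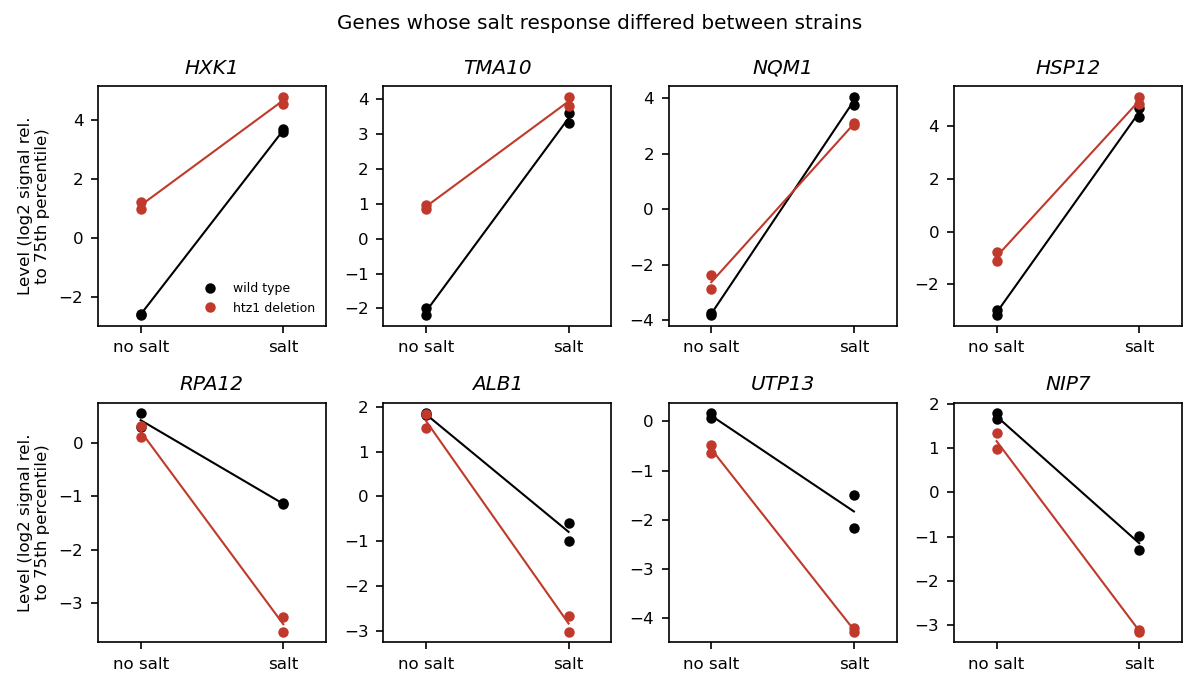
Levels (log2 signal relative to the 75th percentile, vertical axis) of 8 genes whose salt response differed between strains, by state (horizontal axis). Points are single arrays and lines join the group means, black for wild type and red for the deletion strain. In the upper row (HXK1, TMA10, NQM1, HSP12) the strains differ more without salt than with it, in the lower row (RPA12, ALB1, UTP13, NIP7) more with salt.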

How the data were processed

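Per the file headers, the scanner files hold spot intensity values from Agilent Feature Extraction 10.7.3.1, background-subtracted and detrended within each array, on a design that names the sacCer2 build. The deposited value table holds log2 values of 6187 probes made by the authors, with column medians of 10.55 to 10.57 and a normalization not given in the sources used here. Of tools, limma is named in the submitters' processing notes, with no version.

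Control spots and 86 spots flagged as outliers were left out of 12512 spots per array. Each level is the log2 processed signal minus the 75th percentile of its array (2740 to 4290), averaged over the 2 spots of a probe. The test took genes whose probe was well above background on every array of 1 or more groups, with the brightest probe for the 19 genes that had several. This left 5394 genes, 4842 of them well above background on all 8 arrays. Between 82.2 and 88.9% of spots were well above background, and the number of arrays limits the precision. Gene names were read from the files and the R64 gene table (5750 of 6256 probes matched), whose coordinates were not used.

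Tests used limma 3.58.1 in R 4.3.3, with 4 group means over 8 arrays (4 residual degrees of freedom), contrasts, eBayes and Benjamini-Hochberg adjustment over all tested genes. A gene changed if its adjusted p was under 0.05. The fit was checked on simulated data. The gene lists, the paralog pairs and the genes described were chosen with earlier results of these data known. The genes named are the 12 largest fitted rises and falls among genes well above background on all 4 deletion arrays and the 8 largest bounds in each direction. Members of lists of at most 20 tested genes were added, with the largest changes of longer lists (4 in the main direction, 2 in the other). Paralog pairs, HTZ1 and the strain markers were also named. Of strain differences, up to 10 in each direction were taken, the largest among those called and well above background on all 8 arrays. YHR022C, YKL162C and MCO32 were named outside this rule, after their values were seen. The alternatives were quantile scaling, normexp background correction with offset 50, the authors' values, 3 other filters, the mean of probes, the deletion arrays alone, the replicate block, an intensity trend and leaving out each array. Normexp used the median spot signal, because the mean signal was not in the columns used here. Probe sequences and promoters were not used here, and a few genes that the rule would name are not reported here.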

Additional observations from a re-analysis of the deposited data

Results flagged for a closer look

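All results listed here passed the limma test of the difference between the salt changes of the strains (deletion minus wild type, log2). Genes that rose less in the deletion strain and were well above background on all 8 arrays gave differences of −2.68 for HXK1, −2.53 for TMA10, −1.97 for NQM1, −1.69 for HSP12, −1.65 for GLK1, −1.49 for GPP2, −1.11 for GSY1, −0.93 for EMI2 and −0.91 for GPM2. The fitted differences of RTC3 (−2.95) and SOL4 (−1.62) rest on unstressed wild-type arrays that were not well above background, and that of INH1 (−1.98) on 1 such array, so their sizes are not exact.

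Genes that fell more in the deletion strain gave −2.05 for RPA12, −1.90 for ALB1, −1.72 for UTP13, −1.42 for NIP7, −1.40 for RPC25 and −1.23 for NHP2. RRP36 (−1.93) and AIR1 (−1.72) were not well above background on the salt arrays of the deletion strain. PCL1 differed by −1.63 and YGR073C by −1.77. ATF1 differed in the other direction (1.23). The remaining positive differences, 2.44 for YNL195C, 2.29 for YHR022C, 1.59 for MCO32, 1.38 for GUP2 and 1.34 for YKL162C, were fitted against unstressed deletion arrays on which these genes were not well above background.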

How the results depend on the processing

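The count of genes changed by salt in the deletion strain lay between 2181 (normexp) and 3617 (replicate number as a block), and between 2525 and 3096 with 1 array left out. The normexp correction, which used the median spot signal, moved the median of all genes to −0.18 and the split to 776 higher and 1405 lower. The wild-type count lay between 2067 and 3572 over all alternatives, those that leave out 1 array included. Of 250 named genes, 204 were tested under all 19 alternatives, of which 177 kept direction and call in the deletion strain throughout. Over all 250, 209 kept them wherever they were tested.

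The count of strain differences was 54 and moved to 19 in the authors' deposited values, 14 with no filter, 1 under normexp and 141 with the replicate block, which included all 54. With 1 array left out it ran from 4 to 102, the lone array being assumed to vary like the other groups. Of 28 named differences 18 were tested under all 17 alternatives, and 1 kept its call throughout. The direction turned under normexp for the salt changes of GUP2 (−0.70), RCK1 (−0.18) and MSN4 (−0.0011), and for the strain differences of GUP2 (−0.37), MCO32 (−0.69) and YHR022C (−0.032). In the authors' values it turned for SOD1 (0.77) and TPI1 (0.025). The cause was not tested. The replicates numbered alike deviated together from their group means (r = 0.405 in the deletion strain, 0.176 in wild type), but with 2 pairs a strain this does not establish pairing, and no source says that a number marks a shared batch. With 2 arrays a group, genes near background have only bounds. The planned description of promoter motifs was not run, because no promoter sequence was at hand.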

Other observations

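The groups outside the main account were, apart from polyamine genes, called no more often than all genes (58.4%, with 29.3% rising and 29.1% falling). Of 26 inositol and phospholipid genes 8 rose and 6 fell (median 0.22, or −0.0091 under normexp). GPT2, an acyltransferase gene at the head of glycerolipid synthesis, rose (1.97, SE 0.21). The rising count was 3 under normexp, and 4 and 5 without the first and the second salt array of the deletion strain. Fatty acid genes fell in 4 and rose in 3 of 16 cases, the elongase gene ELO3 falling (−2.01, SE 0.18). Of 10 meiosis genes 3 rose, SPS100, a spore wall gene, by 3.63 (SE 0.42), and none fell. The count of meiosis genes was 0 over genes well above background on all 8 arrays, 1 under normexp and 5 with the replicate block on the deletion arrays alone. Of 14 polyamine genes 6 rose and 5 fell, 78.6% called. Of them, 2 rose under normexp and 3 without the second salt array of the deletion strain.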
